A study of Homo sapiens with 6 samples.

Results

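Chromatin immunoprecipitation of the DEK protein in U937 cells gave 4453 stretches of the genome that were covered by a peak in both of 2 independent precipitations, and 1119 of them lay deep inside protein-coding genes. An interval was counted as deep intragenic when the 2 peaks overlapped by at least 1 bp, the middle of the overlap lay within the body of a protein-coding gene, and that middle was more than 5000 bp but at most 50000 bp from the nearest transcription start site (TSS) of any transcript. Neither the height of a peak nor any other mark was used to choose the intervals. They made up 25.2% (95% Wilson interval 23.97 to 26.53%) of the 4435 such stretches that fell on the autosomes, X or Y. Sequence that meets the same conditions of gene body and distance covers 705 Mb, or 24.7% of the genome, so that the deep intragenic intervals were found at 1.59 per Mb against 1.55 per Mb over the whole genome.

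U937 is an established human myeloid cell line that grows in suspension, and all samples were made from this line, with no treatment named in the labels. The samples were 2 precipitations with an antibody against DEK, 2 with an antibody against trimethylated lysine 4 of histone H3 (H3K4me3), and 2 of non-precipitated chromatin that served as the negative control for peak calling. No sample lacked DEK, so the specificity of the antibody cannot be read from these lists. The peaks of each DEK precipitation carry a count of tags, a score and a fold enrichment, whereas the H3K4me3 lists hold positions only.

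DEK is an abundant nuclear protein that binds DNA and chromatin, and it was first known as the partner of NUP214 in a fusion gene of acute myeloid leukaemia. H3K4me3 is a histone mark of active promoters, and gene bodies far from a promoter mostly carry little of it, although active enhancers and unannotated start sites inside introns can carry some. Introns are also rich in Alu elements, a family of short repeats that is found in very many copies throughout the human genome, and in scattered binding sites of transcription factors such as PU.1, the factor that directs myeloid differentiation.

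The 6 stretches shown first come from the deep intragenic intervals with the highest scores among those that lay in introns, held no repeated sequence of very high copy number and contained GAGGAA, the core of the PU.1 site. High-copy sequence means here that at least 1 word of 31 bases in the window reaching 150 bp to either side of the middle occurs 100 or more times in the genome. The stretches are printed to show the sequence under the strongest such intervals, each with the core occurrence nearest to the middle in capitals and 60 bases on either side. All positions are in GRCh37, which has the coordinates of hg19, and each run reads 5′ to 3′ on the strand named.
TESC, chr12:117501206-117501331, minus strand: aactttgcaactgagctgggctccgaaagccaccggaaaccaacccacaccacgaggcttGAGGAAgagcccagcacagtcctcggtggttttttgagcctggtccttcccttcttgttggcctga
DAP, chr5:10682163-10682288, plus strand: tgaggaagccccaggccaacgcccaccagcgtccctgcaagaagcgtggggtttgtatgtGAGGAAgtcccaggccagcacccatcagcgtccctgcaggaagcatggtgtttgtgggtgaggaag
STK32C, chr10:134046045-134046170, minus strand: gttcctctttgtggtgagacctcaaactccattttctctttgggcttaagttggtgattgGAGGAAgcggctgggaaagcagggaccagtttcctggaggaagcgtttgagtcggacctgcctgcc
BMP8A, chr1:39975167-39975292, minus strand: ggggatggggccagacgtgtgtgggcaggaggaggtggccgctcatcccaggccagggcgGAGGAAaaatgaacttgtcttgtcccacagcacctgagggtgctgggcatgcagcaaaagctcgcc
RASA3, chr13:114830826-114830951, plus strand: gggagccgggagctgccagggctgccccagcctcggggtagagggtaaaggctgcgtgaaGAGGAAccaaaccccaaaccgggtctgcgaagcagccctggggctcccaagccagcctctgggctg
RNF165, chr18:43923893-43924018, minus strand: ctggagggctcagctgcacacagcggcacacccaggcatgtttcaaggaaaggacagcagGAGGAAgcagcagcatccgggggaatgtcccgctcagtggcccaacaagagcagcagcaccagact

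In the DAP stretch the core stood within a short sequence that occurs again in the same run, with further cores near the start and the end. In the STK32C stretch a further core followed the capital one, and ttcctc, the core on the other strand, preceded it. The GC content of these 6 stretches lay between 53.2% and 68.3%.

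A further stretch, from an interval inside BMERB1, is shown because its window held the largest number of the motifs searched among intronic intervals of the same kind. The capitals mark the letters of PU.1 (core GAGGAA and the longer GAGGAAGT), SP1 (GGGCGG, which reads as CCGCCC on the printed strand and occurs 2 times), AP-1 (TGANTCA) and IRF (GAAANNGAA) motifs.
BMERB1, chr16:15687223-15687363, plus strand: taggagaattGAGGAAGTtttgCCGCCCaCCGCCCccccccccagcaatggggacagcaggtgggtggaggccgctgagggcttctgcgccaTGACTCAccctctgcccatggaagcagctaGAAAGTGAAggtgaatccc

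The 2 DEK lists differed greatly in size. Replicate 1 holds 15017 peaks with 988363 tags and a false discovery rate of 100% at every peak, and replicate 2 holds 152779 peaks with 4172422 tags and rates of 0.74 to 16.7%. This rate sets the peaks found with sample and control exchanged against those of the sample, and a rate of 100% gives no assurance that a replicate 1 peak stands above the control. Its reason is not given in the sources used here, and every shared interval rests on 1 such peak. The H3K4me3 lists hold 47523 peaks in replicate 1 and 29335 in replicate 2. As a check of the cell type, 12 of 15 myeloid marker genes had an H3K4me3 peak within 1000 bp of a TSS in both precipitations, ITGAL, LYZ and TYROBP being without one in at least 1 list, as against 0 of 7 T cell, 0 of 6 erythroid and 0 of 4 hepatocyte markers and 1 of 5 neuronal markers (SYT1). The B cell factors PAX5 and EBF1 also had such a peak in both lists, and MS4A1 and CD79A did not.

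The share of deep intragenic peaks was close to the share of the genome in both DEK lists and among the shared intervals. By the same rule of position, 26.9% of all replicate 1 peaks (4019 of 14930 on the main chromosomes) and 26.6% of all replicate 2 peaks (40530 of 152337) were deep intragenic. The share was 25.2% of the shared intervals, and 24.7% of the genome meets the rule. The marks beneath them differed. Among deep intragenic peaks that had no partner in the other list, an H3K4me3 peak in both precipitations was found at 26.3% of the replicate 1 peaks (95% interval 24.8 to 28.0%) and at 1.07% of the replicate 2 peaks (0.969 to 1.17%). The shared intervals themselves derived from 1057 peaks of replicate 1 and 1116 of replicate 2, and 60 replicate 1 peaks held more than 1 of them, so that neighbouring intervals are not always separate observations.

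The tag counts of the deep intragenic intervals were modest. In replicate 1 the peaks behind them held a median of 53 tags (range 18 to 563) and in replicate 2 a median of 27 (12 to 430), and 1024 of the 1119 intervals had more tags in replicate 1. The score, which the peak caller derives from its p-value on a negative log10 scale multiplied by 10, had a median of 69.5 in replicate 1 and 82.6 in replicate 2 and was higher in replicate 2 at 676 intervals. The lower of the 2 scores had a median of 62.0, and 119 intervals reached 100 in both. Across the 1119 intervals the tag counts of the 2 precipitations rose together (Spearman's rho = 0.61), while the scores hardly did (rho = 0.04). These coefficients describe intervals from the same pair of precipitations, in which longer peaks hold more tags.

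Most of the intervals lay in introns. The middle of 1032 of them (92.2%, 90.5 to 93.7%) lay in no exon of any transcript of the host genes and was counted as intronic. Of the rest, 52 lay in an untranslated part of an exon, 28 in a coding exon and 7 in an exon of a transcript with no coding sequence. By the principal transcript of the longest host gene, 246 were in the first intron, 140 in the second, 121 in the third and 434 in a later one. A further 66 lay in an exon of that transcript and 112 outside it. The median interval was 12263 bp from the nearest TSS and 49.0% of the way along its gene. For 393 intervals (35.1%) the nearest TSS belonged to another gene than the host, so that the host is a statement of position only. A total of 63 intervals lay in more than 1 coding gene.

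Intervals in the first intron differed somewhat from those further along. H3K4me3 peaks in both precipitations were found at 24.4% of the first-intron intervals (19.4 to 30.1%, n = 246) and at 14.8% of those in the second or a later intron (12.4 to 17.7%, n = 695), although the median distance from the nearest TSS was 12587 and 12744 bp. The former also had high-copy sequence less often, in 50.4% (44.2 to 56.6%) against 62.0% (58.3 to 65.5%), and more tags in replicate 1, a median of 64.5 against 49, and the part of these in the difference was not tested. The 28 intervals in coding exons included no window of very high copy number, which allows a share of up to 12.1% by the Wilson interval.

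The density of the intervals fell with the distance from the nearest TSS. Per Mb of coding-gene sequence at the same distance there were 1.92 intervals between 5000 and 10000 bp, 1.58 between 10000 and 20000 bp, 1.502 between 20000 and 30000 bp, 1.19 between 30000 and 40000 bp and 0.831 between 40000 and 50000 bp. The fall was present among intervals with and without repeated sequence, from 1.06 to 0.511 and from 0.857 to 0.320 per Mb. The composition of the intervals shifted little along the way, with high-copy shares between 53.0% and 61.5% in the 5 bins.

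**Figure D1:**
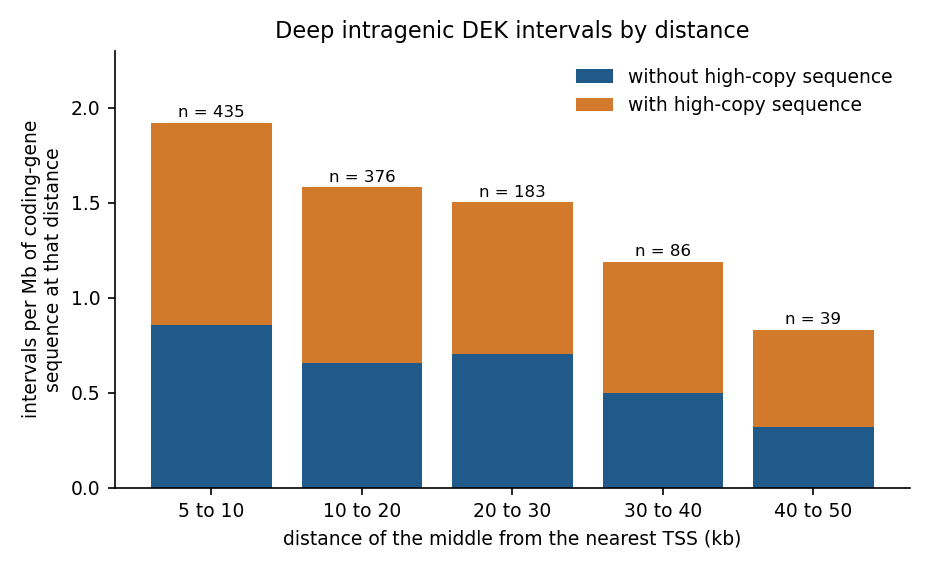
Deep intragenic DEK intervals per Mb of coding-gene sequence (vertical axis) by distance of the middle from the nearest TSS in kb (horizontal axis), with the part over high-copy sequence in orange and the rest in blue, and the number of intervals above each bar. The bars descend from 1.92 per Mb in the nearest bin to 0.831 per Mb in the farthest.

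The limits of 5000 and 50000 bp cut through a continuous range. Just inside the lower limit were intervals in VPS37A at 5044 bp (31 tags in replicate 1 and 30 in replicate 2) and SIK3 at 5045 bp (99 and 21 tags), and just outside it intervals in CHORDC1 at 4996 bp (36 and 30 tags) and SIM1 at 4971 bp (23 and 17 tags). Just inside the upper limit were intervals in SNX9 at 49440 bp (140 and 24 tags) and COLEC12 at 49237 bp (24 and 15 tags), and just outside it RARB at 51207 bp (22 and 17 tags) and C4orf19 at 51313 bp (43 and 21 tags).

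The deep intragenic intervals were less often marked by H3K4me3 than shared intervals near a TSS, and more often than those farthest from one. A peak of this mark overlapped 207 of the 1119 intervals in both H3K4me3 precipitations (18.5%, 16.3 to 20.9%), against 33.7% of all shared intervals and 70.7% (68.0 to 73.3%) of those within 1000 bp of a TSS. The share at intervals of the same distance outside coding genes was 17.7% (15.3 to 20.4%), with a confidence interval that overlaps that of the deep intragenic ones, and at intervals more than 50000 bp from a TSS it was 7.91% (5.18 to 11.9%). A further 219 deep intragenic intervals overlapped a peak in H3K4me3 replicate 1 only, 2 in replicate 2 only, and 691 in neither.

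Against the sequence they lie in, however, the deep intragenic intervals were rich in the mark. Of 14113 windows placed every 50000 bp in sequence of the same kind, 0.779% (0.647 to 0.939%) had their middle inside an H3K4me3 peak in both precipitations, whereas 179 of the 1119 interval middles (95% interval of the share 13.97 to 18.26%) did. The regular windows differed from the intervals in base composition too, with a median GC content of 40.2% against 52.2%, and the part of base composition in the difference was not tested.

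**Figure D2:**
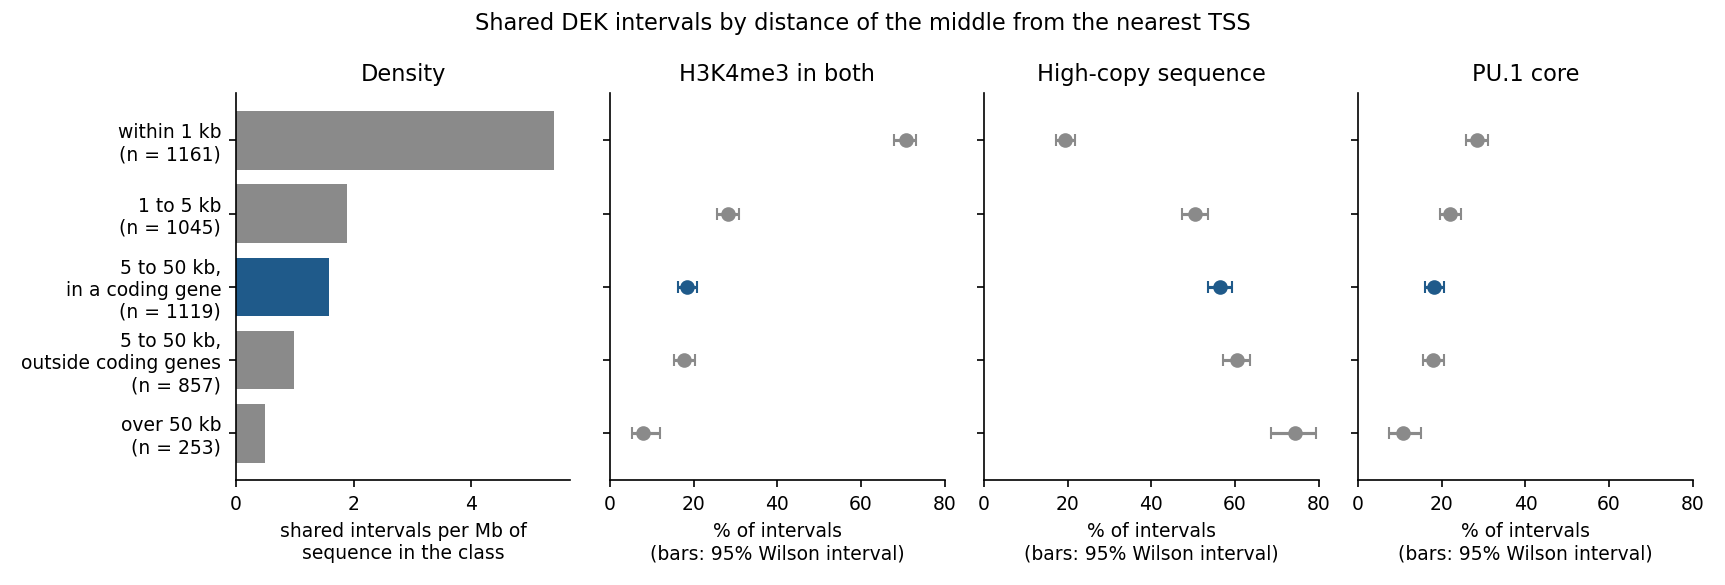
Shared DEK intervals in 5 classes of distance from the nearest TSS (rows, deep intragenic class in blue): intervals per Mb of sequence in the class (bars), and the percentage with H3K4me3 in both precipitations, with high-copy sequence and with the PU.1 core (points with 95% Wilson intervals). The deep intragenic class sits at 1.59 per Mb and 18.5%, 56.5% and 18.1%, next to the class of the same distance outside coding genes in the 3 percentages.

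Repeated sequence was frequent at the deep intragenic intervals. High-copy sequence was found in 632 of the 1119 windows (56.5%, 53.6 to 59.4%). The share was 47.1% over all shared intervals, 19.3% (17.1 to 21.7%) within 1000 bp of a TSS, 60.4% (57.1 to 63.7%) at the same distance outside coding genes and 26.6% (25.9 to 27.3%) in the regular windows of the same class of sequence. Where such a word was present, the most frequent one had a median of 45464 copies. The 2 DEK lists differed in this feature, by windows around the middle of each peak. High-copy sequence was in 38.6% (37.1 to 40.2%) of all deep intragenic replicate 1 peaks and 66.1% (65.6 to 66.6%) of those of replicate 2. Reads from repeated sequence can be placed at the wrong copy, and whether the tags at these intervals came from these copies was not tested.

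The intervals with and without high-copy sequence differed in tags and in H3K4me3. The 487 intervals without it had median tag counts of 83 (replicate 1) and 34 (replicate 2) and a median lower score of 66.3, and the 632 with it had 40, 24 and 59.4. H3K4me3 in both precipitations marked 30.8% (26.9 to 35.0%) of the former and 9.02% (7.03 to 11.51%) of the latter. The summits of the 2 DEK precipitations were closer together over high-copy sequence, with a median difference of 101 bp against 226 bp, although the peaks there were also shorter, with a median length in replicate 1 of 906 bp against 1400 bp. Within 1000 bp of a TSS the same split gave 76.7% and 45.5% for H3K4me3.

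**Figure D3:**
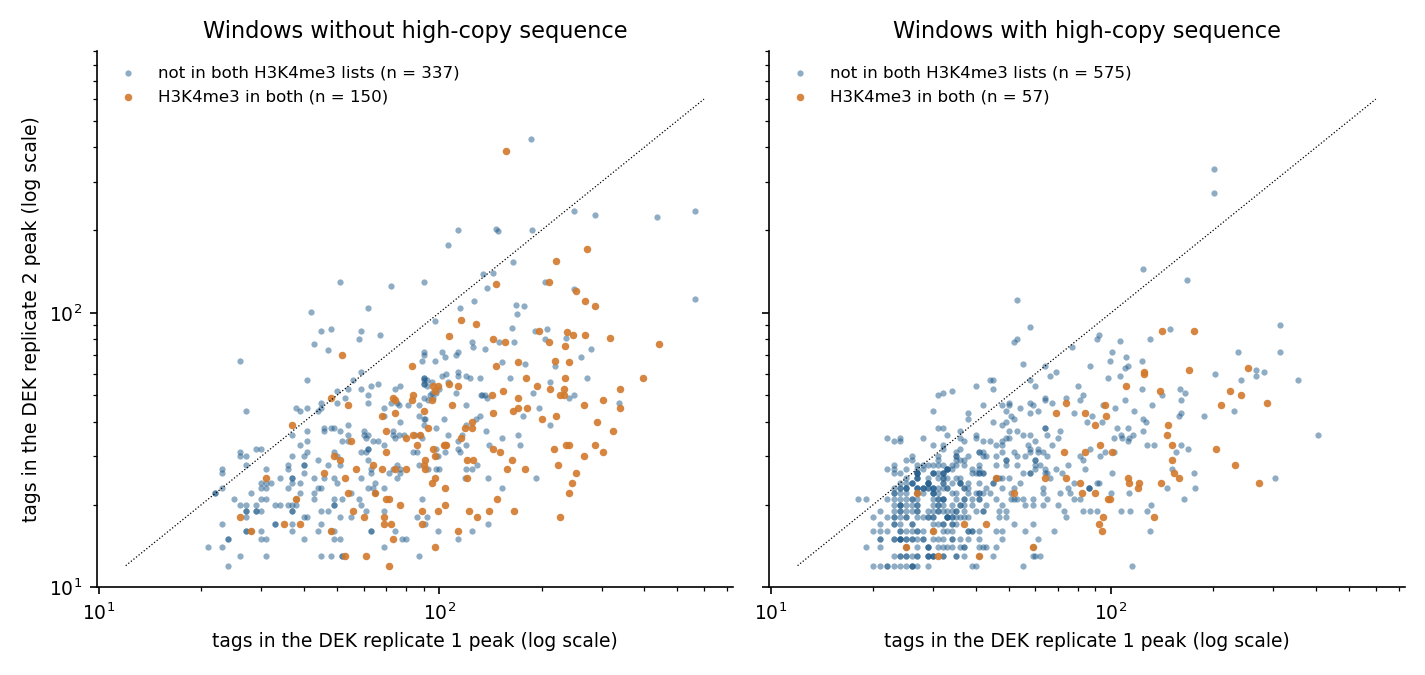
Tags in the DEK replicate 1 peak (horizontal axis) and in the DEK replicate 2 peak (vertical axis), both on log scales, for deep intragenic intervals without (left) and with (right) high-copy sequence, with intervals in both H3K4me3 lists in orange and the line of equal counts dotted. Most points lie below the line, and the intervals with high-copy sequence crowd at the low end, with medians of 40 and 24 tags.

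The intervals with H3K4me3 in both precipitations held more DEK tags in replicate 1 than in replicate 2 relative to the others. Their median tag counts were 111 and 33, against 39 and 24 for the 691 intervals with H3K4me3 in neither list. Median scores were 119 against 62.5 in replicate 1, and 80.5 against 84.5 in replicate 2. The order of the groups by score thus turned between the DEK precipitations, while by tags it was the same in both. Among intervals with at least 100 tags in replicate 1, 41.2% (35.6 to 47.2%, n = 274) had the mark in both.

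The letters GAGGAA, on either strand, were in 202 deep intragenic windows (18.1%, 15.9 to 20.4%). The share over all shared intervals was 21.2%, and the share within 1000 bp of a TSS was 28.3%. Of these 202 windows, 162 were free of high-copy sequence. Without such sequence 33.3% (29.2 to 37.6%) of the deep intragenic windows held the core, as did 33.0% of those within 1000 bp of a TSS, and with such sequence 6.33% (4.68 to 8.50%) did. The regular windows without high-copy sequence held it in 25.3% (24.5 to 26.1%) and those with it in 15.1% (13.9 to 16.2%). Over all windows the order was the opposite, with 22.6% (21.9 to 23.3%) of the regular windows against 18.1% of the deep intragenic ones, where 26.6% of the former and 56.5% of the latter had high-copy sequence. The longer form GAGGAAGT, every match of which contains the core, was in 6.16% (4.35 to 8.66%) of the deep intragenic windows without high-copy sequence and in 1.80% (1.56 to 2.07%) of the corresponding regular windows. Its share was 5.97% in all shared windows without high-copy sequence and 6.49% in those at the same distance outside coding genes.

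Other motifs fell on both sides of the regular windows. In windows without high-copy sequence, the E-box CACGTG bound by USF1 was in 7.19% of the deep intragenic windows and 2.70% of the regular ones, the GC box GGGCGG of SP1 in 13.1% and 2.94%, CCCCACCC in 5.54% and 2.83%, and the RUNX letters TGTGGT in 25.5% and 18.9%. The letters AGATAA of GATA factors were in 8.01% and 22.99%, the IRF letters GAAANNGAA in 6.16% and 12.3%, and the C/EBP letters TTGCNNAA in 13.1% and 16.9%. For the AP-1 letters TGANTCA the shares were 11.7% and 10.2%, with overlapping intervals. The USF1 and SP1 motifs are rich in G and C, as the intervals were, with a median GC content of 55.8% against 38.5% in these regular windows, and the part of base composition was not tested. Relative to windows within 1000 bp of a TSS and without high-copy sequence, the deep intragenic windows held the GC box less often (13.1% against 39.4%), and the RUNX letters more often (25.5% against 16.8%). At the same distance outside coding genes these shares were 16.2% and 26.0%. In windows 1000 to 5000 bp from a TSS they were 19.9% and 26.4%, again without high-copy sequence. A CTCF motif was present in 6 of the 487 windows (1.23%, 0.566 to 2.66%), in 0.183% (0.117 to 0.286%) of the regular windows and in 0.980% (0.654 to 1.47%) of all shared windows without high-copy sequence.

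**Figure D4:**
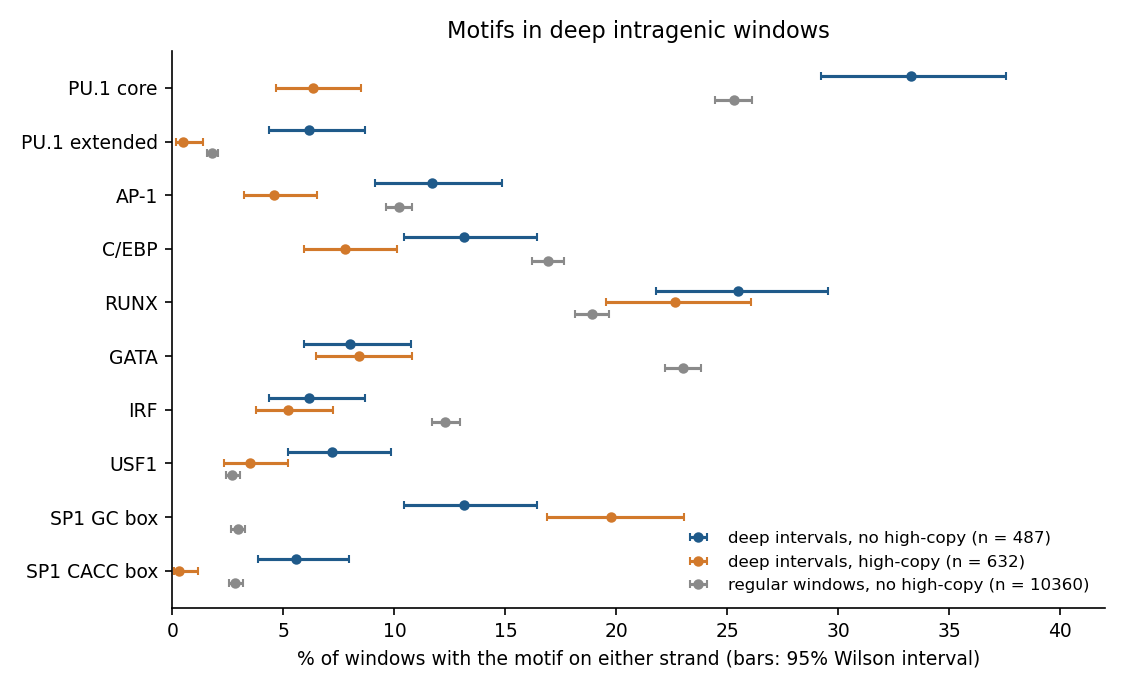
Percentage of windows around the middle with each motif on either strand (points with 95% Wilson intervals) in deep intragenic intervals without high-copy sequence (blue), those with it (orange), and regular windows of the same class of sequence without it (grey). The PU.1 core reaches 33.3% in blue, 6.33% in orange and 25.3% in grey, whereas the GATA letters are most frequent in grey.

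The strongest deep intragenic interval by the lower of its 2 scores lay in the second intron of TESC, which encodes the calcium-binding protein tescalcin. It spans chr12:117500596-117501854, 9425 bp from the nearest TSS, and its peaks held 261 tags (score 566) in replicate 1 and 69 tags (score 368) in replicate 2. An H3K4me3 peak overlapped it in replicate 1 only, and the summits of the 2 DEK peaks were 59 bp apart. The core printed above for TESC starts 41 bp from the middle of this interval.

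Next came an interval in TGFB1, the gene of a cytokine that restrains immune cells, at chr19:41832296-41835954. It held 272 and 171 tags with scores of 344 and 361, and it overlapped H3K4me3 peaks in both precipitations. It is within the annotated gene but outside the principal transcript, and 8487 bp from the nearest TSS. KCNG2, which encodes a subunit of voltage-gated potassium channels, had an interval in its first intron with 147 and 127 tags and H3K4me3 in both lists, although the DEK summits there were 1382 bp apart.

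CDH23, which encodes a large cadherin of sensory hair cells, held 2 of the 10 strongest intervals, side by side in intron 38 (112 and 235 tags in replicate 2). Both came from 1 replicate 1 peak of 563 tags, the highest count of replicate 1 among the deep intragenic intervals. One of them also lay in VSIR, a gene within CDH23 that encodes an immune checkpoint receptor of myeloid and T cells. H3K4me3 peaks overlapped both in replicate 1 only.

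The largest single score of the 10, 1534 in replicate 1, belonged to an interval in the third intron of DAP, a gene of a negative regulator of autophagy, with 436 tags in replicate 1 and 224 in replicate 2. In replicate 2 its score was 258. The others of the 10 lay in ECE1, the endothelin-converting enzyme, with 205 and 80 tags, in HDAC4, a class IIa histone deacetylase, with 90 and 44 tags, in STK32C, a serine/threonine kinase, with 165 and 153 tags, and in BMP8A, a bone morphogenetic protein, with 92 and 54 tags. BMP8A was the only one of the 10 with no H3K4me3 peak in either list, and all 10 windows were free of high-copy sequence. By the same score, the leading intervals with H3K4me3 in both lists were those of TGFB1, KCNG2, HDAC4, AXIN1 and RUNX1. The interval of AXIN1, a scaffold of the complex that degrades beta-catenin, had 125 and 60 tags and was the only one of these 5 with high-copy sequence in its window.

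The 1119 intervals fell in 910 coding genes, 6.55% of the 13884 coding genes that have sequence at this distance, and 720 of the 910 held 1 interval only. The gene with the most intervals was CSMD1, a very long gene of a membrane protein with CUB and sushi domains, which held 9 intervals in 1146 kb of eligible sequence (7.85 per Mb). No H3K4me3 peak in both lists overlapped any of these 9, and the gene had no H3K4me3 at a TSS in both lists. Its strongest interval held 355 tags in replicate 1 and 57 in replicate 2, and the other 8 held 30 to 112 and 13 to 49 tags. Of these 8, 2 came from the same replicate 1 peak.

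RASA3, a GTPase-activating protein that switches off Ras and Rap1, held 6 intervals in 121 kb of eligible sequence (49.4 per Mb). None of them had high-copy sequence, and 2 of the 6 came from the same replicate 1 peak. The 6 intervals lay in introns 2 and 3 and held 36 to 115 tags in replicate 1 and 13 to 104 in replicate 2. HIVEP3, a zinc-finger transcription factor, also held 6, all in its first intron, and 4 of them overlapped H3K4me3 peaks in both precipitations. Their tag counts were 65 to 339 in replicate 1 and 22 to 53 in replicate 2, and 4 of the 6 shared a replicate 1 peak with another. PHLPP1, a phosphatase that acts on AKT, held 6, of which 5 had high-copy sequence and 4 shared a replicate 1 peak with another. CDH23 also held 6 in all. RPTOR, a subunit of the mTORC1 kinase complex, had as many as these genes and followed them only by alphabetical order.

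Host genes more often had an active promoter mark. An H3K4me3 peak in both lists stood within 1000 bp of a TSS of 698 of the 910 hosts (76.7%, 73.8 to 79.3%) and of 61.3% (60.4 to 62.1%) of the eligible genes without a deep interval. Hosts also had more eligible sequence, a median of 81.6 kb against 19.2 kb, so the density is the fairer measure. It was 2.16 intervals per Mb in genes with the mark at a TSS and 0.841 per Mb in genes without it, and for intervals free of high-copy sequence it was 0.905 and 0.419 per Mb. A shared DEK interval at a TSS of the same gene was found in 6.59% (5.16 to 8.40%) of hosts and 4.64% (4.29 to 5.02%) of the other eligible genes. By density, genes with such an interval at a TSS held 2.24 deep intervals per Mb and genes without one 1.58, and free of high-copy sequence 0.778 and 0.699 per Mb. Of the hosts, 850 thus had deep intragenic DEK and no shared DEK interval at a TSS.

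The lists of genes considered showed a range of densities about the 1.61 intervals per Mb of all eligible coding genes, counted once per gene and interval. In each, the share of host genes is to be read against the 6.55% of all eligible genes and against the length of the genes. The lists also differed in H3K4me3 at a TSS in both precipitations. It was found in 97.8% of the chromatin regulators, 21.6% of the long genes of neurons, liver and muscle, and 62.3% of all eligible genes. Genes with that mark held 2.16 intervals per Mb and genes without it 0.841 per Mb, and its part in the list densities was not tested.

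**Figure D5:**
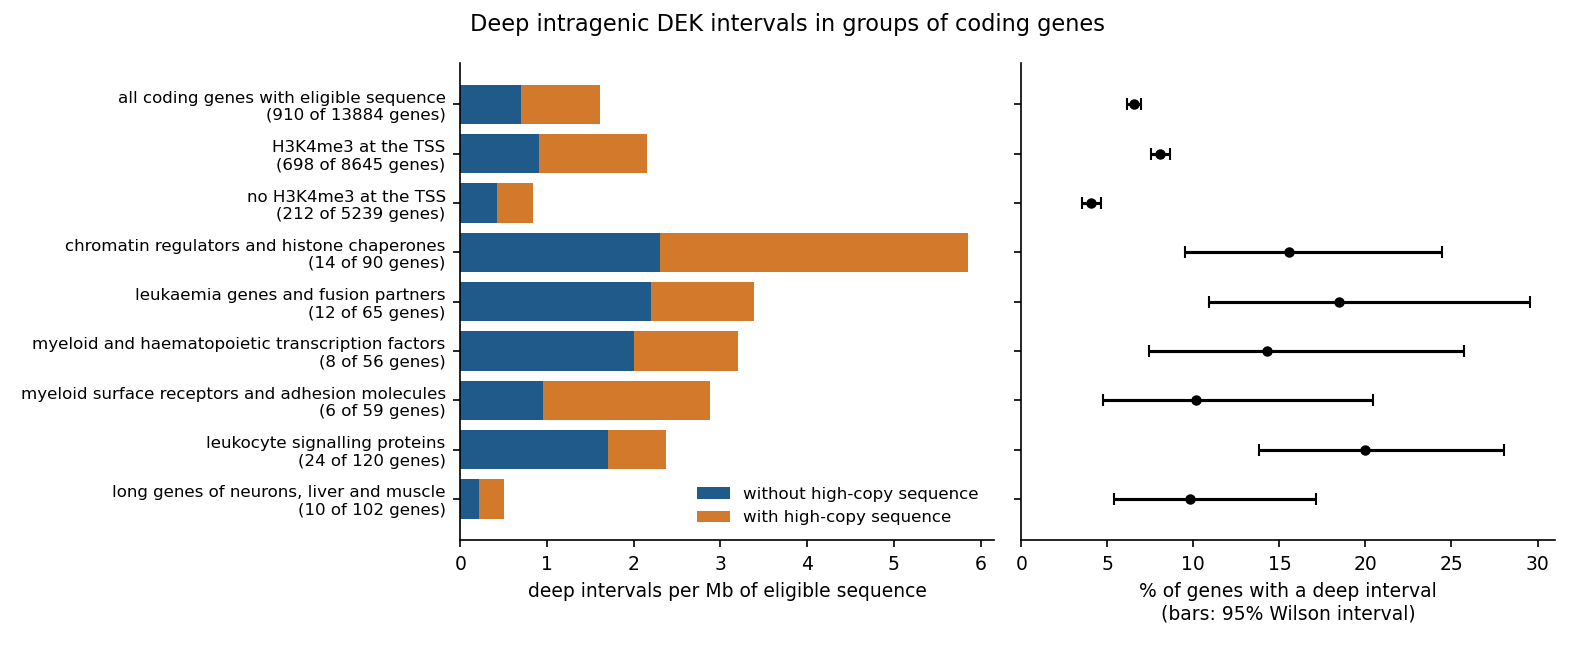
Deep intragenic DEK intervals per Mb of eligible gene sequence (left, with the part over high-copy sequence in orange) and percentage of genes that hold one (right, with 95% Wilson intervals) for all eligible coding genes, genes with and without H3K4me3 at a TSS, and 6 lists of genes. Chromatin regulators have the highest density, 5.86 per Mb, and long genes of neurons, liver and muscle the lowest, 0.508 per Mb.

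Among chromatin regulators and histone chaperones, 14 of 90 eligible genes (15.6%, 9.498 to 24.43%) held 33 intervals, 5.86 per Mb. The list was led by HDAC4, and its 4 intervals included 3 with H3K4me3 in both precipitations. KMT2C, a methyltransferase of H3K4 at enhancers, held 4, all over high-copy sequence and the strongest with 314 and 90 tags. By the middle of the peak itself, KMT2C held 2 deep intragenic replicate 1 peaks, so its 4 intervals may not all be separate observations. The demethylases of H3K9, KDM4B and KDM4C, held 2 and 3 intervals, with 114 and 34 tags at the strongest of KDM4B and 65 and 30 at that of KDM4C. The peaks behind this KDM4B interval barely touched, overlapping only at chr19:5122591-5122600. Of the 33 intervals 13 were free of high-copy sequence, and without the others the density was 2.31 per Mb against 0.702 per Mb for all eligible genes.

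Of genes mutated or fused in leukaemia, 12 of 65 (18.5%, 10.9 to 29.6%) held 20 intervals, 3.39 per Mb. RUNX1, a master regulator of blood cell formation and a frequent partner in fusions, held 4 in 678 kb of eligible sequence, all free of high-copy sequence, and the strongest, in its second intron, had 233 tags (score 557) in replicate 1 and 53 tags (score 199) in replicate 2, with summits 7 bp apart and H3K4me3 in both lists. RB1, the retinoblastoma tumour suppressor, held 1 with 70 and 31 tags. ZMIZ1, a transcriptional coactivator, held 2, the stronger with 210 and 78 tags. CUX1, a homeobox factor lost in myeloid neoplasms, held 3, the strongest with 224 and 52 tags. MLLT10, a partner of KMT2A in fusions, held 1 with 97 and 42 tags. All 5 of these strongest intervals overlapped H3K4me3 in both lists, and those of CUX1 and MLLT10 were over high-copy sequence. Of the 20 intervals 13 were free of such sequence, at 2.20 per Mb against 0.702 per Mb for all eligible genes.

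Myeloid and haematopoietic transcription factors held 16 intervals in 8 of 56 eligible genes (14.3%, 7.42 to 25.7%), 3.20 per Mb, of which those in RUNX1, CUX1 and ETV6 (4, 3 and 1) also count in the leukaemia list. RXRA, the retinoid X receptor, held 1 with 166 and 78 tags. ELF4, an ETS factor of leukocytes, held 3 in its 41.4 kb of eligible sequence on the X chromosome, all with H3K4me3 in both lists, the strongest with 83 and 48 tags. IKZF1, the lymphoid factor Ikaros, held 1 with 158 and 42 tags over high-copy sequence.

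Leukocyte signalling proteins held 32 in 24 of 120 genes (95% interval of the share 13.8 to 28.0%), 2.38 per Mb. After RASA3 these were led by INPP5D, the phosphatase SHIP1 that opposes phosphoinositide 3-kinase, with 96 and 46 tags, DOCK5, an activator of Rac, with 90 and 41 tags, LCP2, the adaptor SLP-76, with 103 and 33 tags, and ITPKB, an inositol trisphosphate kinase, with 117 and 36 tags. INPP5D and LCP2 had H3K4me3 in both lists there, and DOCK5 and ITPKB in neither. Of the 32 intervals 23 were free of high-copy sequence, at 1.71 per Mb against 0.702 per Mb for all eligible genes.

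Surface receptors and adhesion molecules of myeloid cells held 6 in 6 of 59 genes (10.2%, 4.74 to 20.5%), 2.88 per Mb. The 2 that were free of high-copy sequence gave 0.959 per Mb, against 0.702 per Mb for all eligible genes. None of the 6 intervals had H3K4me3 in both lists. They were in CD38 (47 and 25 tags), IL6R (67 and 47), NRP1 (36 and 20), PTPRE (29 and 32), IFNAR1 (41 and 27) and MSR1. These counts were near the median of all deep intragenic intervals or below it, apart from those of IL6R.

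The long genes of neurons, liver and muscle, taken as genes not characteristic of myeloid cells, held 24 in 10 of 102 genes (9.80%, 5.41 to 17.1%). Because these genes are long, that share came with the lowest density, 0.508 per Mb. After CSMD1 they were led by CACNA1C, the pore subunit of a cardiac and neuronal calcium channel, with 4 intervals free of high-copy sequence and 191 and 86 tags at the strongest. CTNNA2, a neuronal catenin, held 1 with 32 and 25 tags, NEB, the giant thin-filament protein of muscle, 1 with 53 and 13 tags, and CACNA2D1, an auxiliary calcium channel subunit, 2 with 29 and 19 tags at the stronger. Of the 24 intervals 10 were free of high-copy sequence, at 0.212 per Mb against 0.702 per Mb for all eligible genes.

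None of the genes that the study checked singly, nor NUP214 or DEK, held a deep intragenic interval. S100A9, VIM and CSF3R have no sequence far enough from a TSS, whereas IRF8, CSF2RA, CHMP2B, ICAM2, NUP214 and DEK itself have between 0.940 and 17.5 kb of it. All eligible coding genes held 1.61 intervals per Mb, so absence from so little sequence says little about these genes.

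The chromosomes differed in density. Chromosome 10 had the highest, 2.90 intervals per Mb of eligible sequence (106 intervals), and the X chromosome the lowest above 0, 0.434 per Mb, with none on the Y chromosome. Chromosome 3 held the most intervals, 112, of which 77 were over high-copy sequence. The median distance to the nearest shared interval from another replicate 1 peak was 94799 bp. Of the 1119 intervals, 106 (9.47%, 7.89 to 11.3%) had such a neighbour within 10000 bp. Within 50000 bp, 387 (34.6%, 31.9 to 37.4%) had one, and how far this departs from an even scatter was not tested.

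The share with the mark rose, and that over repeats fell, with the score. Of intervals whose lower score was 50 to under 60, 12.1% (9.51 to 15.3%, n = 496) had H3K4me3 in both lists and 65.9% (61.6 to 70.0%) had high-copy sequence. Of the 119 with a lower score of 100 or more, 38.7% (30.4 to 47.6%) and 29.4% (21.97 to 38.14%) did. The PU.1 core was in 15.3% of the former and 25.2% of the latter.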

How the data were processed

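ChIP-seq was performed on U937 cells, and the peak lists of 2 DEK and 2 H3K4me3 precipitations were used. Per the labels and the study's methods, reads were aligned to hg19 with Bowtie 2 and peaks called with MACS 1.4.1 in each precipitation against non-precipitated chromatin. The methods describe this for DEK, and that it holds for H3K4me3 was taken from the labels. The deposited DEK lists give a count of tags per peak, not normalized, a score (the p-value on a negative log10 scale, multiplied by 10), a fold enrichment (a ratio over the local background) and a false discovery rate in percent. The deposited H3K4me3 lists give positions only. No input file was analysed here, and while the study's methods state a minimum number of reads per sample, the depth behind each list is not known here.

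Peaks were intersected (overlap of at least 1 bp) and placed by GENCODE 44 on GRCh37. Windows reaching 150 bp to either side of the middle were searched for motifs on both strands and for words of 31 bases with 100 or more copies in the genome on both strands. Regular windows stood every 50000 bp. Shares carry 95% Wilson intervals, which cover counting error only, and since each comparison rests on 1 pair of lists, no test was made and replicate spread was not estimated. Eligible sequence is coding-gene sequence more than 5000 and at most 50000 bp from a TSS. The rule, gene lists and members were chosen with earlier results of these data known. Genes named are the hosts of the 10 intervals with the highest lower score and the 5 genes with the most intervals (ties by alphabet). Also named are up to 5 list members by that score and the 5 strongest intervals with H3K4me3 in both lists. The rest are those at the distance limits, genes the study checked, NUP214 and DEK, and intervals whose sequence is printed. RPTOR, VSIR, MSR1 and ETV6 were added after their values were seen. Some items that these rules select are not reported here. The scripts (Python 3.11.15, NumPy 2.4.6, pandas 2.3.3, Numba 0.67.0, SciPy 1.17.1, Matplotlib 3.10.9) passed 8 of 8 checks when tested on simulated data.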

Additional observations from a re-analysis of the deposited data

How the results depend on the processing

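No paired analysis was possible because no result comes from a test, although the labels give the DEK and H3K4me3 precipitations the same replicate numbers. Of 55 alternative values, 31 stayed within the 95% interval of the share, within 1.5 times the count or within the spread of the 2 lists' median scores. At least 50% of each peak covered by the other left 705 intervals, with H3K4me3 in both lists at 12.6%, high-copy sequence at 63.8% and the PU.1 core at 15.3%. A score of at least 100 in both lists left 119, 22.8% of the shared intervals so scored, with 38.7%, 29.4% and 25.2% and a median lower score of 128. Start sites of coding transcripts only raised the share of shared intervals to 28.6%, a lower limit of 2000 bp to 35.2%, while a limit of 10000 bp left 684 (15.4%) and the whole interval deep in the gene gave 23.97%. Either DEK list alone gave 4019 to 40530 intervals, 26.6 to 26.9% of its peaks. With the middle of the interval inside the H3K4me3 peak the share was 15.996%, and with either H3K4me3 list alone it was 18.7 to 38.1%. The PU.1 core was in 11.9% of windows of 100 bp to each side, 36.2% of windows of 300 bp to each side and 33.3% of windows without high-copy sequence. Low tag counts limit the weaker intervals, and the false discovery rate of every replicate 1 peak was 100%.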
